A study of Capra aegagrus with 10 samples.

Results

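Overexpression of the long noncoding RNA lncRNA55666 from a virus (OV55666) was compared with its control virus (Lv5NC) for every miRNA measured in goat mammary gland cells, with 2 small RNA libraries in each group. A known (goat-prefixed) or predicted miRNA entered the comparison when it reached 5 CPM (counts-per-million, taken over miRNA reads) in at least 2 of these 4 libraries. This kept 390 of the 1403 miRNAs of the table, namely 198 of 369 known and 192 of 1034 predicted ones. The rule used the level and not the difference between the groups. Of the 390, 284 reached the minimum in all 4 libraries, 43 in exactly 3 and 63 in exactly 2. Those 63 included 9 that passed through both OV55666 libraries alone and 31 that passed through both Lv5NC libraries alone, and for these the filter itself fixes which group is higher. Just inside the limit lay novel_mir1083 and novel_mir452, with a second-highest value of 5.15 and 5.13 CPM, and just outside lay novel_mir728 and novel_mir1307, both at 4.97 CPM.

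All cells came from mammary gland of a dairy goat (breed label Lanshan) and were grown in 3D culture. The series has 10 libraries in 5 groups of 2: untreated cells (Blank), Lv5NC, OV55666, a second control virus (Lv3NC) and a knockdown of the same RNA (KD553). Both groups compared carry a virus, so what they share is the infection, and what the labels set apart is the lncRNA55666 gene in the OV55666 virus. The promoter of the virus, the dose of virus and the level of lncRNA55666 reached are not stated in the labels, and a small RNA table does not measure that transcript. Nothing in the labels says that the 2 libraries of a group came from separate cultures or animals, so p-values measure only the spread between these libraries.

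A miRNA is cut from a hairpin whose arms, 5p and 3p, can each be loaded into an Argonaute protein, where the seed at the 5′ end of the miRNA picks the messenger RNAs to be repressed. The arm kept more often is the guide and the other the passenger, and since both come from the same precursor, their ratio can be read within a library. A long noncoding RNA can bear on miRNA levels by hosting a miRNA or by pairing with it, and in goat mammary cells miRNAs are studied mostly for lipid synthesis, growth and differentiation.

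The 4 libraries held 19174206 and 20295923 table reads for Lv5NC and 20344191 and 19912497 for OV55666. Of these, 3108495 and 5231656 reads for Lv5NC and 5247734 and 4875135 for OV55666 lay on miRNAs. The members held 99.9% of the miRNA reads in each library. The groups also differed outside the miRNAs: RF identifiers, which the table does not name, took 4.81% and 7.72% of the table reads in Lv5NC and 11.97% and 13.7% in OV55666. Predicted miRNAs took 23.2% and 12.5% of the miRNA reads in Lv5NC and 11.2% and 9.70% in OV55666. The part of these shares in the results below was examined only by adding the RF share to the fit beside the group means. Its slope there comes from the gaps between replicates, of which the widest was in KD553 (16.2% and 26.3%). The RF shares of Lv5NC and OV55666 did not overlap. Values adjusted for the RF share therefore extrapolate and cannot separate that share from the group. Markers of epithelial cells were nearly missing: none of the 8 listed rows of the miR-200 and miR-183 families reached the minimum, and their summed level was 13.3 and 9.81 CPM in Lv5NC and 9.86 and 27.8 CPM in OV55666. Stromal and smooth muscle markers summed to 21374 and 21736 CPM in Lv5NC and 14170 and 15383 CPM in OV55666, with 8 of 9 listed rows as members. The tissue label is thus not matched by the 8 epithelial rows in any of the 4 libraries. The epithelial markers miR-203 and miR-205 were not among those rows. In bulk samples, fewer cells of a type and less RNA per cell cannot be told apart.

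With limma fitted to all 10 libraries and p-values adjusted by Benjamini-Hochberg over the 390 members, 1 miRNA rose under overexpression (0.256% of those tested) and 0 fell (0.0%). The one was miR-328-3p. At an unadjusted p under 0.05 there were 39 members, 17 higher and 22 lower, and the smallest adjusted p after miR-328-3p was 0.238. With voom weights in limma the count was 0, with 32 members at an unadjusted p under 0.05. An exact permutation test of any single value cannot go below p = 0.333 with 2 libraries against 2.

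The spread between replicates lay in the lower part of the range between the groups. The median absolute log2 difference over the members was 0.59 between the Lv5NC libraries and 0.64 between the OV55666 libraries. The 4 pairs of libraries across the groups were at 0.56, 0.65, 0.83 and 1.03. Among the 176 members with a mean of at least 50 CPM, 112 differed more between the replicates of one of the groups than between the group means. The libraries of the groups did not overlap in 192 of the 390 members (49.2%). For 2 libraries against 2 in random order that share would be 0.333, and the members share the same libraries. The values below are therefore given library by library, and a member is called changed only where it passed the test.

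**Figure D1:**
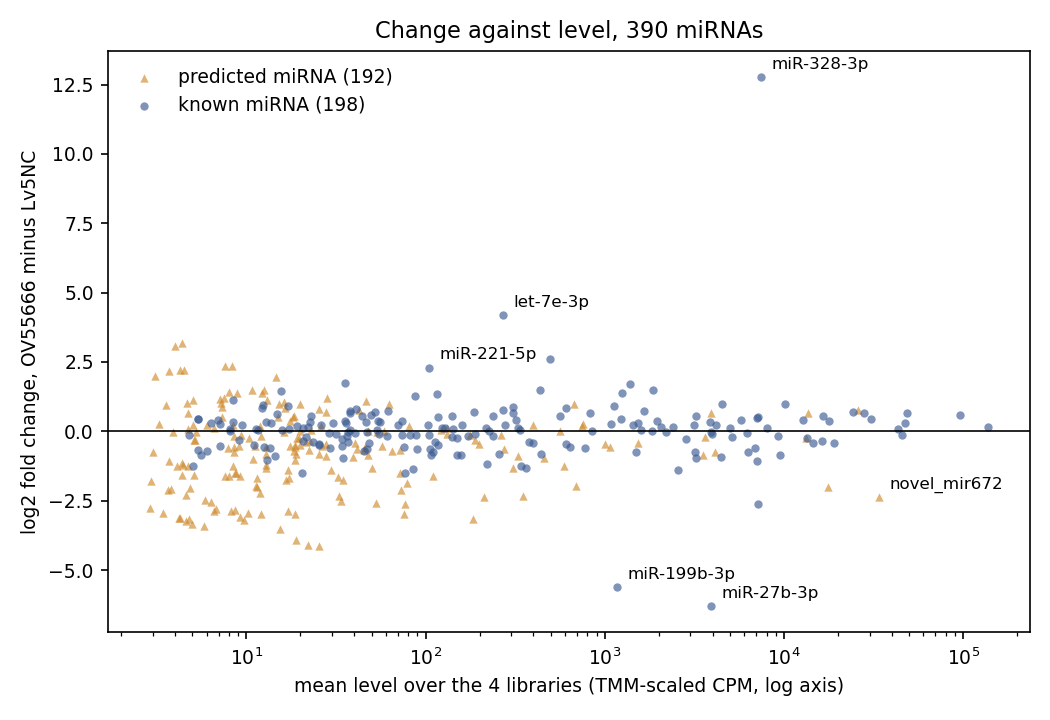
Log2 fold change (OV55666 minus Lv5NC) of each of the 390 miRNAs against its mean level over the 4 libraries in TMM-scaled CPM on a log axis, with known miRNAs as circles and predicted ones as triangles. miR-328-3p lies at 12.76, far above all others, and the predicted miRNAs lie more often below than above 0.

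miR-328-3p, which in human cells is known to repress the drug transporter ABCG2, had 6 and 2 reads in the Lv5NC libraries and 54633 and 91633 reads in the OV55666 libraries. Scaled, this was 1.95 and 0.307 CPM in the Lv5NC libraries and 8827 and 21077 CPM in the OV55666 libraries, or 1.13 ± 1.16 CPM (SD, n = 2) in Lv5NC and 14952 ± 8662 CPM (SD, n = 2) in OV55666. The log2 fold change was 12.76 (SE 0.73, adjusted p = 3.49e-05), and the ratio of the pooled, scaled reads was 16674 with a 95% exact interval of 8462 to 38622, which covers counting error only. Both OV55666 libraries lay above both Lv5NC libraries, and leaving out any 1 of the 4 libraries left the call in place.

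The same miRNA did not separate overexpression from the rest of the series. It stood at 1.93 and 1.01 CPM in untreated cells, at 13609 and 4644 CPM in the control virus for knockdown and at 6548 and 2889 CPM in the knockdown libraries. OV55666 replicate 1 thus lay within the range of the Lv3NC and KD553 libraries and OV55666 replicate 2 above it, while the low values were those of Lv5NC and Blank. The total that each deposited TPM column was divided by exceeded the reads on listed identifiers by 23416 and 43506 reads in Lv5NC and by 1 read in OV55666 replicate 1, whereas OV55666 replicate 2 had 21115 such reads. The same excess was 15214 and 59484 reads in the Blank libraries. If given to miR-328-3p, those reads would stand for 7593 and 6668 CPM in the Lv5NC libraries, and its value in the fit would become 0.95 on the log2 scale (SE 0.69, adjusted p = 0.692). Which identifier those reads belong to cannot be told from the table.

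Overexpression was next set against the opposite manipulation, with the difference between the overexpression effect (OV55666 minus Lv5NC) and the knockdown effect (KD553 minus Lv3NC) tested in the same fit. 1 of 390 miRNAs differed (0.256%), again miR-328-3p, at 13.63 (SE 1.03, adjusted p = 0.000324), and the next smallest adjusted p was 0.663. There were 26 members at an unadjusted p under 0.05. Voom weights gave 0 calls. The count was 3 without Lv5NC replicate 2, 2 without OV55666 replicate 1 and 7 without 1 of the KD553 libraries. With the unlisted reads given to miR-328-3p, its difference was 1.82 (adjusted p = 0.722).

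2 other miRNAs were nearly unlisted in a single library, and their fold changes rest on it. miR-27b-3p, a regulator of fat cell differentiation that represses PPARG, was at 9486 and 3027 CPM in the Lv5NC libraries and 3187 and 0.460 CPM in the OV55666 libraries. OV55666 replicate 2 held 2 reads against 19724 to 29256 in the other 3 libraries, and the table of that library lacks 21115 reads, or 4857 CPM. The log2 fold change was -6.30 (SE 2.86, adjusted p = 0.454). Without OV55666 replicate 2 it was -0.63 (adjusted p = 0.994), and without OV55666 replicate 1 it was -11.82 (adjusted p = 0.000381). With the reads on no listed identifier given to miR-27b-3p it was -0.45 (adjusted p = 0.842). The 5p arm and miR-23b-3p from the same precursor transcript did not share that gap, since miR-27b-5p was at 45.7 and 84.3 CPM under Lv5NC against 102 and 63.0 CPM under OV55666 and miR-23b-3p was at 9019 and 13138 CPM under Lv5NC against 14599.9 and 14605 CPM under OV55666. miR-24-3p of the same clusters was lower under OV55666, at a log2 fold change of -2.62 (adjusted p = 0.45), with its levels given below. The let-7e passenger strand let-7e-3p was at 0.649 and 287 CPM in the Lv5NC libraries and 446 and 348 CPM in the OV55666 libraries, with 2 reads in Lv5NC replicate 1. Its log2 fold change of 4.18 (adjusted p = 0.454) became 0.46 without Lv5NC replicate 1 and 7.88 without Lv5NC replicate 2, where it passed the test.

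**Figure D2:**
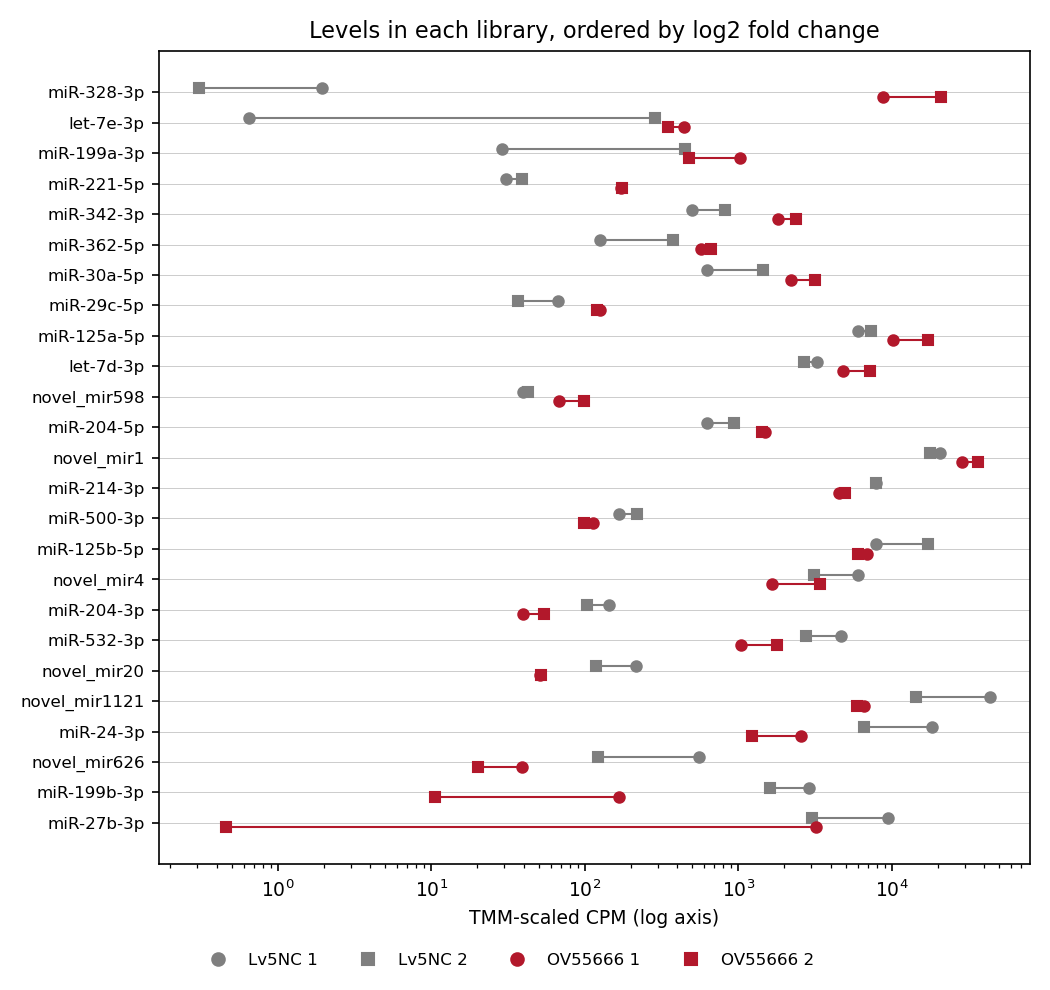
TMM-scaled CPM (log axis) of each of the 4 libraries for 25 miRNAs, ordered from the highest log2 fold change at the top to the lowest at the bottom, with Lv5NC in grey and OV55666 in red and a line joining the replicates. Red lies to the right of grey in the upper rows and to the left in the lower ones, and the long lines of let-7e-3p and miR-27b-3p each end in 1 library with 2 reads.

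Among members of at least 50 CPM other than miR-328-3p, those with the smallest p on the higher side did not pass the test. miR-221-5p, the passenger strand of miR-221, which represses the cell cycle inhibitor CDKN1B, was at 30.8 and 39.2 CPM in the Lv5NC libraries and 172 and 176 CPM in the OV55666 libraries (log2 fold change 2.29, SE 0.57, adjusted p = 0.238). Its replicates were close and the groups lay apart. miR-342-3p was at 498 and 821 CPM in the Lv5NC libraries and 1816 and 2385 CPM in the OV55666 libraries (log2 fold change 1.70, SE 0.42, adjusted p = 0.238). miR-30a-5p, a repressor of the autophagy protein BECN1 in human cells, was at 622 and 1452 CPM in the Lv5NC libraries and 2212 and 3170.5 CPM in the OV55666 libraries (log2 fold change 1.48, SE 0.46, adjusted p = 0.28). Without Lv5NC replicate 1 the value of miR-30a-5p was 0.87, and after adjustment for the RF share that of miR-221-5p was 1.39. In all 3 the OV55666 libraries lay above the Lv5NC libraries. miR-362-5p was at 126 and 378 CPM in the Lv5NC libraries and 573 and 660.4 CPM in the OV55666 libraries (log2 fold change 1.49, SE 0.54, adjusted p = 0.364), and without Lv5NC replicate 1 its value was 0.70. miR-29c-5p was at 67.4 and 36.9 CPM in the Lv5NC libraries and 126 and 119 CPM in the OV55666 libraries (log2 fold change 1.28, SE 0.47, adjusted p = 0.373). miR-125a-5p, which represses the receptors ERBB2 and ERBB3 in human breast cancer cells, was at 6011 and 7313 CPM in the Lv5NC libraries and 10189.8 and 17121 CPM in the OV55666 libraries (log2 fold change 0.99, SE 0.42, adjusted p = 0.454). let-7d-3p (0.99), miR-204-5p (0.93) and the predicted novel_mir598 (0.98) and novel_mir1 (0.76) completed this side with adjusted p from 0.350 to 0.454, and their groups lay apart as well. Adjusted for the RF share, miR-125a-5p was at 0.65 and novel_mir598 at 0.59.

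On the lower side miR-24-3p, which shares its transcripts with miR-23 and miR-27, was at 18158 and 6618 CPM in the Lv5NC libraries and 2579.6 and 1235 CPM in the OV55666 libraries (log2 fold change -2.62, SE 1.02, adjusted p = 0.45). miR-532-3p was at 4702 and 2771 CPM in the Lv5NC libraries and 1039 and 1778 CPM in the OV55666 libraries (log2 fold change -1.41, SE 0.46, adjusted p = 0.316). novel_mir20 was at 217 and 119 CPM in the Lv5NC libraries and 50.9 and 52.2 CPM in the OV55666 libraries (log2 fold change -1.62, SE 0.52, adjusted p = 0.316). The groups of all 3 lay apart, and the Lv5NC replicates were themselves well apart. miR-125b-5p, which shares its seed with miR-125a-5p, was at 7889 and 17286 CPM in the Lv5NC libraries and 6893 and 6027 CPM in the OV55666 libraries (log2 fold change -0.86, SE 0.41, adjusted p = 0.466; -0.29 without Lv5NC replicate 2 and -1.42 without Lv5NC replicate 1). miR-214-3p, a stromal miRNA, was at 7843 and 7890.2 CPM in the Lv5NC libraries and 4526 and 4954 CPM in the OV55666 libraries (log2 fold change -0.73, SE 0.32, adjusted p = 0.454), with the replicates of each group close together and a value of -0.40 after adjustment for the RF share. novel_mir626 (-3.17), novel_mir1121 (-1.997), miR-204-3p (-1.37), novel_mir4 (-0.87) and miR-500-3p (-0.85) had adjusted p from 0.475 to 0.549. After adjustment for the RF share miR-204-3p was at -0.39 and novel_mir626 at -1.50, and without Lv5NC replicate 1 novel_mir1121 was at -1.19 and novel_mir4 at -0.40.

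For several of the miRNAs on the higher side it was the control virus that stood apart in the series. miR-221-5p ranged over 102 to 388 CPM in the 6 libraries outside the comparison, miR-342-3p over 2569.7 to 5587 CPM, miR-30a-5p over 1501 to 3630.5 CPM and miR-204-5p over 1285 to 1592 CPM. Both Lv5NC values of each lay below all 8 other libraries, while the OV55666 values lay within or below the range of the 6. Over all members, both Lv5NC libraries lay above the other 8 in 34 and below them in 19, whereas both OV55666 libraries did so in 4 and 7. The same counts together were 25 for Blank, 22 for Lv3NC and 32 for KD553, against 53 for Lv5NC and 11 for OV55666. Without TMM factors they were 68 for Lv5NC and 18 for OV55666, with median-of-ratios scaling 58 and 11, and scaled to all table reads 44 and 4. The members were selected on Lv5NC and OV55666 levels, which favours miRNAs high in these groups. Above 50 CPM, where that choice matters less, the counts were 26 for Lv5NC and 2 for OV55666, the latter being novel_mir20 and miR-125b-5p, both below all others.

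The most abundant miRNAs did not pass the test either. let-7b-5p, of a family that restrains growth and favours differentiation, was at 145787 and 116148 CPM in the Lv5NC libraries and 144706 and 142122 CPM in the OV55666 libraries (log2 fold change 0.14, SE 0.37, adjusted p = 0.909) and let-7a-5p at 45053 and 39005 CPM in the Lv5NC libraries and 44496 and 43507 CPM in the OV55666 libraries (log2 fold change 0.07, SE 0.31, adjusted p = 0.957). Without Lv5NC replicate 2 these values were -0.02 and -0.03. miR-222-3p was at 48260.2 and 77932 CPM in the Lv5NC libraries and 37992 and 220570.0 CPM in the OV55666 libraries, and OV55666 replicate 2 alone carried the difference: the log2 fold change was 0.58 with it and -0.57 without it. In that library miR-222-3p took 19.7% of the miRNA reads, whereas let-7b-5p led the other 3 libraries with 14.5% to 17.1%. miR-423-3p was at 35797 and 38509 CPM in the Lv5NC libraries and 46829 and 73461 CPM in the OV55666 libraries (log2 fold change 0.66, SE 0.54, adjusted p = 0.707) and miR-455-3p at 29792 and 21885 CPM in the Lv5NC libraries and 37566 and 32386 CPM in the OV55666 libraries (log2 fold change 0.45, SE 0.42, adjusted p = 0.751), and in both the groups lay apart, with values of 1.47 and 1.09 when adjusted for the RF share. miR-99b-5p (0.32) and miR-193b-3p (-0.13) overlapped between the groups, and miR-193b-3p was at 0.43 without OV55666 replicate 1.

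More predicted than known miRNAs had a negative value, a description for which no test of the difference between the classes was run. Of 192 predicted members 131 had a negative and 61 a positive log2 fold change, with a median of -0.57, while of 198 known members 89 were negative and 109 positive, with a median of 0.07. The median over all 390 was -0.15. Without TMM factors the known median was -0.05 and the predicted median -0.69. After adjustment for the RF share the known median was -0.13, with 83 positive and 115 negative, and the predicted median -0.05, with 93 positive and 99 negative, so the predicted miRNAs were then no lower than the known ones. That adjustment cannot separate the RF share from the group. The filter fixes the direction of 27 predicted members that passed through Lv5NC alone and 8 that passed through OV55666 alone, and the other 157 had a median of -0.49. At 50 CPM or more, where no predicted member passed through a single group, the median was -0.54 over 48 predicted and 0.10 over 128 known members, and after adjustment for the RF share both were 0.02. None of the predicted miRNAs passed the test. Among the abundant ones, novel_mir672 was at 88241 and 27326 CPM in the Lv5NC libraries and 12464 and 7241 CPM in the OV55666 libraries (log2 fold change -2.37, SE 1.30, adjusted p = 0.549) and novel_mir1121 at 43781 and 14345 CPM in the Lv5NC libraries and 6644 and 5935 CPM in the OV55666 libraries. Others pointed the opposite way, such as novel_mir1 at 20684 and 17634 CPM in the Lv5NC libraries and 28757 and 36196 CPM in the OV55666 libraries. novel_mir672 was spread just as widely elsewhere, over 306 to 46618 CPM in the 6 other libraries, and its log2 fold change was -1.52 without Lv5NC replicate 1.

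The direction of the predicted miRNAs rested in part on Lv5NC replicate 1 and OV55666 replicate 2. The predicted members of at least 50 CPM summed to 229361 and 97852 CPM in Lv5NC and to 93093 and 106684 CPM in OV55666, so Lv5NC replicate 1 held the high value. Of the 144 below 50 CPM, 86 had their highest value in Lv5NC replicate 1 and 65 their lowest in OV55666 replicate 2, where 39 were at 0, against 5 to 11 in the other 3 libraries. The median of all predicted members was -0.27 without Lv5NC replicate 1, -1.05 without Lv5NC replicate 2, -0.86 without OV55666 replicate 1 and -0.19 without OV55666 replicate 2.

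Families and clusters were read as counts and medians against the median of all members, -0.15. None of the 23 lists held a member past the test, since the only miRNA called, miR-328-3p, is in no list. The signs of these medians were fragile: of the 22 lists with a member, 14 turned on leaving out 1 of the 4 libraries and 8 after adjustment for the RF share, and 5 kept their sign under all 14 settings run on the lists. The 5 were let-7, the list of miR-34 and miR-449, that of miR-221 and miR-222, the miR-23, miR-27 and miR-24 clusters and the list of miR-193 and miR-365. The let-7 list, which held 5p arms only, had 7 of 9 members above 0 and a median of 0.14, with values from -0.02 to 0.54. Outside it, the 3p arms of let-7a, let-7b, let-7d and let-7f were at 0.64, 0.65, 0.99 and 0.95. That of let-7i was at -0.09, and that of let-7e, with its near-empty entry, at 4.18. The miR-30 list counted only 5p arms as members. Outside it, the 3p arms of miR-30b, miR-30c and miR-30e were at 0.35, 0.35 and -0.38. All 4 listed miR-30 members were above 0 (median 0.34). This came to 1.48 for miR-30a-5p and to 0.04 to 0.44 for the other 3, which were scarce at 2.92 to 17.8 CPM. After adjustment for the RF share 1 of the 4 was above 0 (median -0.48), and without Lv5NC replicate 1 the median was 0.09. The list of the growth-restraining family of miR-15 and miR-16, again with 5p arms only as members, had 4 of 6 above 0 (median 0.27, and -0.44 with 0 of 6 above 0 after adjustment for the RF share). It was led by miR-16b-5p at 4643 and 5145 CPM under Lv5NC against 8027 and 5129.7 CPM under OV55666, and miR-424-3p lay outside it at -0.17. miR-34a, which is induced by p53, was at 5644 and 6091 CPM under Lv5NC against 7245 and 9105 CPM under OV55666 (log2 fold change 0.47, SE 0.30, adjusted p = 0.62), and with miR-449a-5p gave that family a median of 0.42. The list of miR-221 and miR-222 had 3 of 3 above 0, and miR-221-3p at 2255 and 2927 CPM under Lv5NC against 3199.7 and 4527 CPM under OV55666 was far closer than its passenger strand. All 3 miR-181 members were above 0 (median 0.34), and after adjustment for the RF share all 3 were below it (median -0.41).

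The miR-17-92 cluster and its paralogs, which promote proliferation, split into 8 above and 7 below 0 (median 0.22), and the median turned negative on leaving out Lv5NC replicate 1 (-0.05), Lv5NC replicate 2 (-0.14) or OV55666 replicate 2 (-0.13), and was -0.57 after adjustment for the RF share. miR-17-5p was at 24.6 and 34.2 CPM under Lv5NC against 46.9 and 45.8 CPM under OV55666 and miR-18a-3p at 55.8 and 57.3 CPM under Lv5NC against 35.1 and 33.8 CPM under OV55666. The HOX cluster miRNAs had 3 of 4 above 0 (median 0.17, -0.25 without Lv5NC replicate 2 and -0.01 after adjustment for the RF share), among them miR-10b-5p at 190.0 and 202 CPM under Lv5NC against 257 and 437 CPM under OV55666. The miR-125, miR-99 and miR-100 list had 5 above and 4 below 0 (median 0.06, -0.05 without TMM factors, -0.45 without Lv5NC replicate 1 and -0.18 without OV55666 replicate 1). Both members of the miR-29 list, 3p arms of a family that represses collagens, lay just below 0 (median -0.06, 0.11 scaled to all table reads, 0.07 without Lv5NC replicate 2 and 0.04 without OV55666 replicate 1). The groups of miR-29a-3p overlapped, at 3301 and 4933 CPM under Lv5NC against 4332 and 3245 CPM under OV55666. The 5p arms miR-29b-5p and miR-29c-5p were outside that list, at 0.71 and 1.28. The reference-type miRNAs miR-191, miR-423, miR-361 and miR-425 had 4 above and 3 below 0 (median 0.11, -0.01 without TMM factors and -0.22 without Lv5NC replicate 1). Their guide miR-191-5p was at 13589 and 17549 CPM under Lv5NC against 20119.9 and 20228 CPM under OV55666, with the groups apart.

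Below the median of all members lay the miR-23, miR-27 and miR-24 clusters, with 6 of 8 members negative and a median of -0.60. Besides miR-27b-3p and miR-24-3p, this held miR-27a-3p at 5393 and 5815 CPM under Lv5NC against 4800.5 and 1785 CPM under OV55666 and miR-27a-5p at 531 and 595 CPM under Lv5NC against 292 and 352 CPM under OV55666, whereas miR-23b-3p was positive at 0.42. Without OV55666 replicate 2 the median was -0.13. All 4 members of the list of miR-193 and miR-365 were negative (median -0.37), with miR-193a at 11398 and 7717 CPM under Lv5NC against 3824 and 5219 CPM under OV55666. The X-linked miR-532, miR-362 and miR-500 cluster ran both ways, from -1.41 for miR-532-3p to 1.49 for miR-362-5p (median 0.25, -0.33 without Lv5NC replicate 1 and -0.13 after adjustment for the RF share). Of the miR-148, miR-152 and miR-130 list, named for lactation, 2 of 5 were positive (median -0.28, and 0.49 with 3 of 5 positive without OV55666 replicate 1), and milk miRNA miR-148a-3p was at only 14.9 and 14.6 CPM under Lv5NC against 3.88 and 21.2 CPM under OV55666. The milk fat list was positive in 4 of 4 (median 0.18), in 0 of 4 after adjustment for the RF share (median -0.40) and in 2 of 4 without OV55666 replicate 2 (median -0.02), and miR-103-3p, which raises fat synthesis in goat mammary cells, was at 153 and 229.6 CPM under Lv5NC against 204 and 365 CPM under OV55666, so the groups overlapped. Of the innate-response miRNAs, miR-155-5p was at 328 and 555 CPM under Lv5NC against 892 and 650.0 CPM under OV55666, above, and miR-146a at 116 and 68.7 CPM under Lv5NC against 113 and 7.82 CPM under OV55666, with OV55666 replicate 2 low. The median of that list was -0.69, and 0.45 without OV55666 replicate 2. The imprinted DLK1-DIO3 cluster had 2 of 40 rows as members, miR-127-3p and miR-154b-5p, neither above 26.0 CPM.

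Among markers of other cells, the 8 stromal and smooth muscle members split 4 to 4 (median -0.05, 0.08 scaled to all table reads and 0.17 without OV55666 replicate 1). miR-143-3p was at 8627 and 7849 CPM under Lv5NC against 5336 and 5579.9 CPM under OV55666, the groups apart, while miR-145-5p from the same transcript was at 921 and 2251 CPM under Lv5NC against 1004 and 2215 CPM under OV55666, the groups overlapping. Blood markers summed to 1066 and 519 CPM in Lv5NC and 312 and 995 CPM in OV55666, with 3 members and a median of -0.22 that was positive at 0.26 to 0.38 on leaving out Lv5NC replicate 1 or either OV55666 library, and most of this was the red cell miRNA miR-451-5p at 961 and 476 CPM under Lv5NC against 241 and 867 CPM under OV55666. The 2 striated muscle members were positive (median 0.38), and both were negative without Lv5NC replicate 1 (median -0.36), with miR-133a-3p at 77.2 and 231 CPM under Lv5NC against 173 and 267 CPM under OV55666. The single endothelial member miR-126-3p was at 47.7 and 40.2 CPM under Lv5NC against 28.6 and 105 CPM under OV55666 (0.32, and -0.48 without OV55666 replicate 2). The blood, muscle and endothelial groups overlapped in every member. Their part in the results was not tested.

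**Figure D3:**
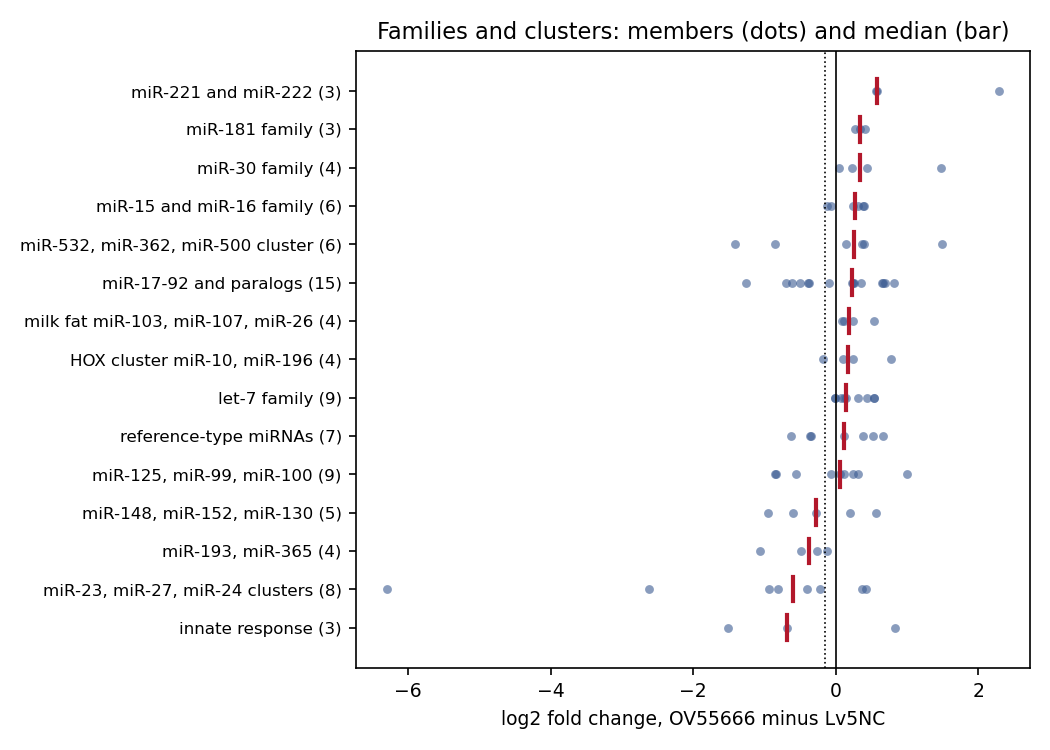
Log2 fold change of the members (dots) of the 15 families and clusters with at least 3 members, with the median of each as a red bar, 0 as a solid line and the median of all 390 miRNAs (-0.15) as a dotted line. Medians lie between -0.69 for the innate-response list and 0.58 for miR-221 and miR-222, and the far left dot of the miR-23, miR-27 and miR-24 row is miR-27b-3p at -6.30.

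Both arms were members for 56 hairpins, and the ratio of 5p to 3p can be taken within a library, where the scaling cancels apart from the pseudocount. The log2 fold changes of the arms had the same sign in 31 of 56, both higher in 14 and both lower in 17, counts that move with the scaling (34 of 56 without TMM factors, 10 both higher and 24 both lower). They correlated across hairpins at r = 0.16, a description of points that share libraries and depth. In the 28 hairpins with both arms at 50 CPM or more, 15 had the same sign. The groups did not overlap in their arm ratio in 28 of the 56, a share close to the 49.2% of single members whose groups did not overlap, and the ratio differed by at least 1 on the log2 scale in 15. These ratios were not tested.

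Leaving aside miR-27b and let-7e with their near-empty entries, the widest gap was in miR-204, which lies in an intron of TRPM3 in human. Its log2 ratio of 5p to 3p was 2.13 and 3.16 in Lv5NC and 5.21 and 4.69 in OV55666, a change of 2.30, as miR-204-5p was at 629.7 and 934 CPM under Lv5NC against 1503 and 1423 CPM under OV55666 and miR-204-3p at 143 and 103 CPM under Lv5NC against 39.7 and 54.3 CPM under OV55666. The arms thus pointed in opposite directions, and the groups lay apart in both. Outside the comparison the miR-204 ratio ran from 3.70 to 5.82, so both OV55666 values lay within that range and both Lv5NC values below it. For miR-221 the ratio was -6.15 and -6.19 in Lv5NC and -4.21 and -4.68 in OV55666, with 3p the abundant arm throughout. The libraries outside the comparison ran from -5.16 to -3.61, so here too Lv5NC lay below them and OV55666 among them. For miR-532 the ratio was -1.58 and -0.23 in Lv5NC and 1.00 and 0.31 in OV55666, so the leading arm was 3p in both Lv5NC libraries and 5p in both OV55666 libraries. The Blank libraries were also led by 5p (0.73 and 0.37), those of Lv3NC by 3p (-1.27 and -0.61), and those of KD553 were split (-0.21 and 0.93). For let-7d the ratio was 0.52 and 0.27 in Lv5NC and -0.22 and -1.01 in OV55666, with 5p leading in Lv5NC and 3p in OV55666. Outside the comparison it ran from -0.91 to 1.48. miR-125a shifted by 1.55, mostly in OV55666 replicate 2, with ratios of 6.01 and 6.52 in Lv5NC and 6.65 and 8.98 in OV55666. miR-191 moved by 1.01 and miR-500 by 1.21, the latter with miR-500-5p at no more than 52.4 CPM. At the other end, the ratio of miR-99b was 7.33 and 7.41 in Lv5NC and 7.46 and 7.42 in OV55666 and that of miR-125b was 5.31 and 6.39 in Lv5NC and 5.73 and 5.94 in OV55666, with changes of 0.07 and -0.01. Both arms of miR-125b were lower, at -0.86 and -0.84.

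**Figure D4:**
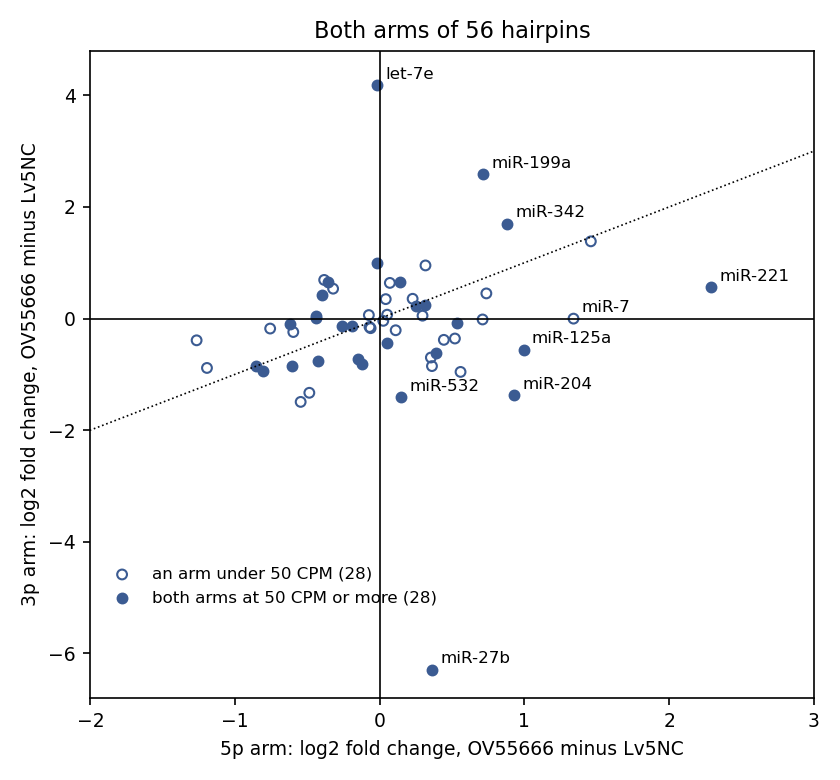
Log2 fold change of the 3p arm (vertical) against that of the 5p arm (horizontal) for 56 hairpins, filled where both arms reach 50 CPM and open otherwise, with the dotted line where the arms change equally. miR-204, miR-532 and miR-125a lie in the lower right, where 5p is higher and 3p lower, and miR-27b and let-7e lie far off because of 1 library each.

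Some of the largest fold changes concerned miRNAs with a near-identical partner, between which the counting can divide reads. miR-199b-3p was at 2877 and 1604 CPM in the Lv5NC libraries and 166 and 10.6 CPM in the OV55666 libraries (log2 fold change -5.61, SE 1.69, adjusted p = 0.278), miR-199a-3p was at 28.9 and 453 CPM in the Lv5NC libraries and 1028 and 478 CPM in the OV55666 libraries (log2 fold change 2.59, SE 1.10, adjusted p = 0.454), and miR-199c-3p was at 707 and 444 CPM in the Lv5NC libraries and 684 and 3127 CPM in the OV55666 libraries. Their sum was 3612 and 2501 CPM in Lv5NC and 1878 and 3615 CPM in OV55666, so it overlapped between the groups. Over the 10 libraries the sum ranged over 1.38 on the log2 scale and the single rows over 6.76 to 8.49. When all near-identical sets were summed before the fit, which also changed the TMM factors, the log2 fold change of these 3 together was -0.07 (SE 0.40, adjusted p = 0.968). With miR-199a-3p and miR-199b-3p alone as the set it was -1.66 (adjusted p = 0.298). Under the main scaling these sums changed by -0.21 and -1.68. Without Lv5NC replicate 1 miR-199a-3p taken alone was at 0.63. The opposite directions of miR-199a-3p and miR-199b-3p are thus uncertain.

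Another set of near-identical rows was miR-92a-3p and miR-92b, which share the seed of the miR-25 family. miR-92b was at 40326 and 2153 CPM in the Lv5NC libraries and 3218 and 66165 CPM in the OV55666 libraries and miR-92a-3p at 4439.7 and 34119 CPM in the Lv5NC libraries and 50149 and 7879.8 CPM in the OV55666 libraries, so that in each library one was high and the other low, and replicates disagreed on which. Their sum was 44765 and 36272 CPM in Lv5NC and 53368 and 74044 CPM in OV55666, apart between the groups. Its log2 change was 0.64 under the main scaling and 0.77 (SE 0.34, adjusted p = 0.445) in the fit with all near-identical sets summed. The sum ranged over 1.20 on the log2 scale in the 10 libraries, and the rows over 3.52 and 5.01. miR-92b taken alone had 0.65 (SE 2.06), which was -1.47 without Lv5NC replicate 2 and -1.41 without OV55666 replicate 2. The sets with miR-199c-3p and with miR-92 were chosen after their values were seen. In 17 sets listed without them, the sum varied less over the 10 libraries than every one of its rows in 5, among them miR-23a with miR-23b and miR-103 with miR-107. In the set of miR-27a with miR-27b the sum was 14879 and 8842.5 CPM in Lv5NC and 7987 and 1786 CPM in OV55666, apart between the groups. Its log2 change was -1.60 under the main scaling. In the fit with those sets summed it was -1.58 (SE 0.84, adjusted p = 0.529). This sum includes the near-empty miR-27b-3p entry of OV55666 replicate 2.

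**Figure D5:**
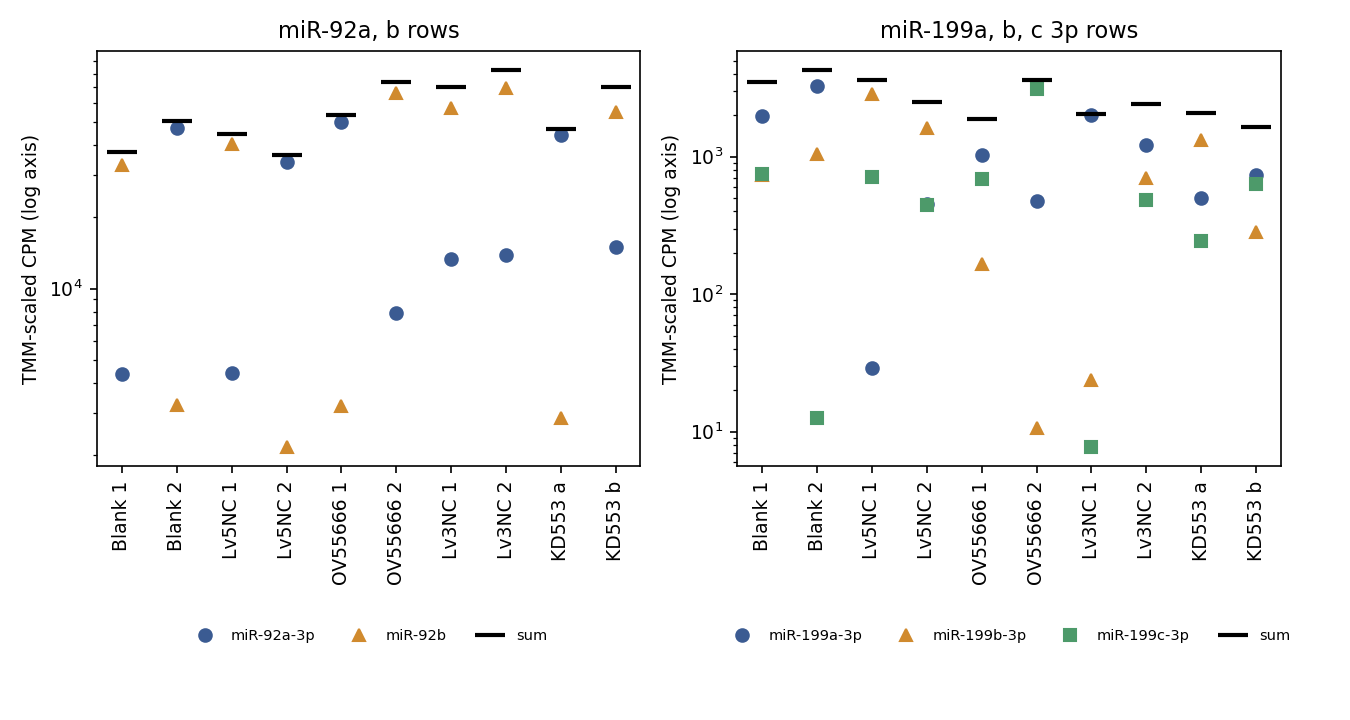
TMM-scaled CPM (log axis) of miR-92a-3p and miR-92b (left) and of miR-199a-3p, miR-199b-3p and miR-199c-3p (right) in each of the 10 libraries, with the sum as a black bar. The sums stay within 1.20 and 1.38 on the log2 scale, while the rows change places from library to library, replicates included.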

How the data were processed

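Small RNA from 10 libraries was sequenced. Per the file headers, the authors deposited a column of whole read counts per identifier for each library (unit recorded as other, since many cells carry a missing mark, read here as 0). The deposited TPM columns divide each count by a library total with no length term, and served only to find that total. 4 TPM columns were not used: both of Lv3NC carry the name of replicate 1, and those of KD553 are known by group only, like its counts. The labels and headers name no aligner, database or genome build (not given in the sources used here), and no sequences were used.

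Library sizes were the miRNA reads times a TMM factor (trims of 30% on ratios and 5% on levels). The factors were 0.992 and 1.25 for Lv5NC and 1.18 and 0.892 for OV55666. Before these factors 1 CPM stood for 3.11 to 5.25 reads. The log2(CPM + 1) values entered limma 3.58.1 (R 4.3.3, statmod 1.5.0) as 5 group means, moderated robustly along an abundance trend (5 residual degrees of freedom). Fold changes are on that scale, which understates those of low miRNAs. Tests were two-sided, adjusted by Benjamini-Hochberg over 390 miRNAs, with a threshold of 0.05. The fit was also run on simulated counts, whose outcome is not used here. That simulation did not model a near-empty entry in 1 library or reads divided between near-identical rows. Named are miRNAs past the threshold, the 12 of smallest p in each direction at 50 CPM or more, the 10 most abundant, those with under 10 reads in 1 library and at least 1000 in another, list members and arm pairs. The members, the 23 lists and these rules were chosen with earlier results of these data known. The plan, written for limma, was kept. Alternatives are given at the end.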

Additional observations from a re-analysis of the deposited data

Results flagged for a closer look

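The overexpression and knockdown effects on miR-328-3p differed by 13.63 on the log2 scale, and the test of that difference passed (adjusted p = 0.000324 by limma). The overexpression effect was 12.76 and the knockdown effect was -0.87, so the difference rested on the Lv5NC libraries with their 6 and 2 reads. With the reads on no listed identifier given to miR-328-3p, the difference was 1.82 (adjusted p = 0.722).

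Reads on RF identifiers, which lie outside the miRNAs, took 11.97% of the table reads in OV55666 replicate 1 and 13.7% in OV55666 replicate 2, above the 4.81% and 7.72% of the control virus. The same share was 15.4% and 10.7% in untreated cells, so the Lv5NC libraries were the lowest of these 6. This share entered the miRNA fit only as a covariate, which cannot separate it from the group. With it miR-328-3p stayed past the threshold at 13.51 (adjusted p = 8.78e-05 by limma) and the median of the predicted miRNAs moved from -0.57 to -0.05.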

How the results depend on the processing

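miR-328-3p was the 1 miRNA called higher under every setting run except voom weights, where 0 were called (14.06, adjusted p = 0.188) and the count for the difference of effects was also 0, and the unlisted reads, where its value was 0.95 (adjusted p = 0.692). Leaving out 1 library gave 1 to 3 calls higher, 0 to 1 lower and 1 to 7 for the difference. The replicate block, over the 8 libraries with a number, gave 1 higher and 0 lower, with 57 members at an unadjusted p under 0.05. Same-numbered libraries deviated together only weakly (r from 0.161 to 0.235 over 6 pairs of groups, 2 numbers each), so the pairing rests on the number alone. No paired analysis of the difference of effects was possible because the KD553 columns carry no usable number.

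The signs of these named miRNAs turned, and the cause was not tested; those of list medians stand beside each list. let-7a-5p was at -0.0474 without TMM factors and -0.17 with known miRNAs only, and from -0.0342 to 0.21 on leaving out a library. let-7b-5p was at -0.10 with known miRNAs only, and from -0.0237 to 0.30 on leaving out a library. miR-193b-3p was at 0.0226 without the filter, at 0.0551 scaled to all table reads, and from -0.56 to 0.43 on leaving out a library. For miR-222-3p that range was -0.57 to 1.85. miR-92b was at -1.67 with the RF share as a covariate, and from -1.47 to 2.83 on leaving out a library. With all near-identical sets summed, miR-199a-3p was at -1.66 together with miR-199b-3p and at -0.0729 with miR-199c-3p added. Median-of-ratios scaling, a pseudocount of 5 CPM, testing only members at 50 CPM and fitting only the libraries compared moved no call. The 214 members under 50 CPM had a median SE of 0.91 against 0.54 above. By class it was 0.69 for known and 1.02 for predicted members under 50 CPM, and 0.51 and 0.73 above. What sets the SE was not tested.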
